A study of Emiliania huxleyi with 18 samples.

Results

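The effect of weak UV radiation on transcript levels was measured in early cultures of Emiliania huxleyi CCMP3266, from 3 UV and 3 control cultures harvested on day 7. These 6 libraries were taken by their labels from a series of 18, in which the same arms were also harvested on days 10 and 13. All cultures were axenic, were started at 330 cells per ml, held 50 ml and were kept standing at 18 °C. Their growth light was on for 16 h and off for 8 h of each day, at an intensity of 130 µmol photons per m2 and second. The UV cultures also received a reptile lamp for 14 h per day, within the light period, whose output inside the flask was 0.5 W per m2 for UV-A, 0.07 W per m2 for UV-B and 0.026 W per m2 for UV-C. That lamp emits across these ranges, so a difference cannot be assigned to UV-B alone. All cultures were of 1 strain, and nothing in the labels says whether cultures numbered alike in both arms were handled together, so p-values measure the spread between these cultures.

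Emiliania huxleyi is a coccolithophore, a unicellular marine alga that covers itself with calcite scales and forms blooms near the ocean surface, where it meets sunlight and its UV part. UV-B is absorbed by DNA and proteins, and algae are known to respond to it with DNA repair, antioxidants and changes in photosynthesis. The deposited identifiers are not paired with gene names, and 0 of them matched the RefSeq gene table used here, so genes are described by their transcript level and behaviour rather than by function.

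Each library reports unique molecular identifier (UMI) counts, in which reads copied from 1 captured molecule are counted once. UMI totals were 6025337, 5606912 and 8546930 in control replicates 1, 2 and 3, and 1060640, 5547001 and 9216603 in UV replicates 1, 2 and 3. UV replicate 1 was therefore the shallowest library of the series, whereas the other 2 UV libraries lay near or beyond the control depths. UMIs per read were 0.700 to 0.735 in control and 0.706 to 0.723 in UV cultures and overlapped (exact two-sided permutation p = 0.7, n = 3 each, smallest possible 0.1). When each library was thinned to 1060640 UMIs, 19356, 19369 and 19361 genes were detected in control and 19477, 19612 and 19470 in UV cultures. The UV libraries were all above the control libraries in this measure, by 158 genes on average (exact two-sided permutation p = 0.1). As deposited, without thinning, the difference was -1138 genes (exact two-sided permutation p = 0.9).

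The comparison of UV with control asked which transcripts differed after 7 days with weak UV. Levels are given as CPM, the UMI count relative to a scaled library total. The scaling used the trimmed mean of M-values, called TMM from here on, which sets the bulk of moderately changed genes to no change, and 18196 genes were tested with edgeR's quasi-likelihood test. Under this scaling 349 genes (1.92% of those tested) had an adjusted p under 0.05, of which 36 (0.198%) were higher and 313 (1.72%) lower under UV. Most of these changes were below 2-fold. The 313 lower genes had a median absolute log2 fold change of 0.55 and 18 of them fell at least 2-fold. The 36 higher genes had a median absolute log2 fold change of 0.66 and 11 rose at least 2-fold. In 307 of the 313 lower genes every UV library was below every control library, and in 34 of the 36 higher genes every UV library was above. Among all genes tested, groups did not overlap in 12.8% with UV lower and in 6.17% with UV higher.

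**Figure D1:**
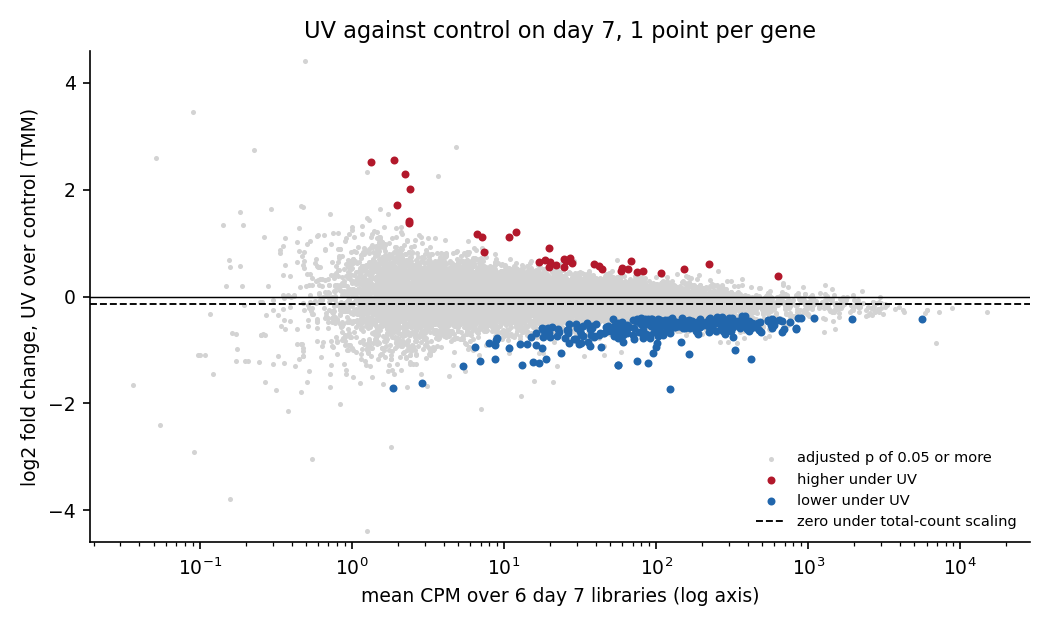
Each point is 1 of 18196 genes, with its mean CPM over the 6 day 7 libraries (log axis) against its log2 fold change of UV over control under TMM scaling. The 313 lower calls (blue) lie mostly at high CPM and within a 2-fold change, the 36 higher calls (red) spread to low CPM, and the dashed line marks where zero lies under total-count scaling, 0.14 below that of TMM.

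The count moved when 1 culture was left out, while most calls under TMM stayed lower. Such a fit also has 1 culture fewer in an arm, so a fall in the count cannot be assigned to the culture removed. Leaving out control replicate 1, 2 or 3 gave 12, 13 and 70 higher and 124, 59 and 541 lower genes. Leaving out UV replicate 1, 2 or 3 gave 23, 11 and 13 higher and 108, 67 and 94 lower genes. In these 6 fits 81.9% to 91.2% of the calls were lower. Control replicate 3, whose removal raised the count to 611, was also the control library nearest to the UV libraries among genes over 300 CPM, where its median log2 difference from the control mean was -0.07. Leaving out any other library lowered it to between 72 and 136.

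The split between higher and lower genes depended on how libraries were scaled. With library totals alone (total-count scaling), 117 genes passed (0.643%), 82 higher (0.451%) and 35 lower (0.192%), so that 70.1% of the calls were higher, against 10.3% under TMM. Median-of-ratios scaling stayed near TMM with 36 higher and 327 lower genes (together 1.99% of those tested). Upper-quartile scaling gave 50 and 150 (1.1%), TMM with singleton pairing 41 and 182 (1.23%), and library totals without the 100 most abundant genes 70 and 64 (0.736%). Over all genes the median log2 fold change was -0.02 under TMM, 0.03 under upper-quartile and 0.12 under total-count scaling. The share of genes with a lower fitted level under UV was 54.2%, 44.6% and 29.5% in the same order.

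A further 3 scalings were chosen after these results were seen, so those values only describe the dependence. When the median ratio of genes over 100 CPM was set to no change, 50 genes were higher and 69 lower (0.654%). When that of genes of 1 to 10 CPM was set to no change, 33 were higher and 463 lower (2.73%). An expression-dependent (loess) scaling, which removes a smooth trend of the difference with level, gave 45 higher and 226 lower genes (1.49%). More genes were thus lower than higher in 7 of the 9 scalings, which include these 3. The exceptions were both kinds of library total. All 9 scalings used the same libraries, so the tally is a description and not separate evidence.

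Among the called genes, total-count scaling brought in higher genes and dropped lower ones. All 36 higher calls under TMM were also higher calls under total-count scaling, which added 46 more. Of the 313 lower calls under TMM, 35 remained under total-count scaling and 278 did not, and total-count scaling added no lower gene. All 313 kept an unadjusted p under 0.05 under total-count scaling, and all 82 of its higher genes kept one under TMM. The change of scaling shifted the log2 fold change by a median of 0.14, and the smallest absolute log2 fold change called under TMM was 0.36, so that called genes could not turn direction. Across all 9 scalings 29 genes were called higher and 34 lower each time.

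The scaling factors themselves separated the arms. TMM factors, which correct the library total for its composition, were 0.844, 0.820 and 0.882 in control replicates 1 to 3 and 0.943, 0.939 and 0.935 in UV replicates 1 to 3. No UV factor overlapped a control factor (exact two-sided permutation p = 0.1, the smallest this design allows). A lower factor marks a library whose total lies more in genes that stand above the bulk. The 565 genes over 300 CPM held 47.5%, 47.9% and 46.1% of the UMIs in control replicates 1, 2 and 3, against 46.3%, 44.7% and 44.6% in UV replicates 1, 2 and 3. Control replicate 3 was slightly below UV replicate 1, so the groups overlapped in this share (exact two-sided permutation p = 0.2). The 5832 genes of 10 to 30 CPM held 9.19%, 8.89% and 9.53% in control and 10.1%, 10.1% and 10.1% in UV cultures, with no overlap (exact two-sided permutation p = 0.1). The 100 most abundant genes held 23.4% ± 0.690 in control and 22.3% ± 1.23 in UV cultures (SD, n = 3 each; exact two-sided permutation p = 0.3). CPM are shares of a library, and total RNA per cell was not among the values used here, so a smaller share of abundant transcripts and a larger share of the rest cannot be told apart.

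The lower calls were more abundant than the genes tested, while the higher calls under TMM lay near the level of all genes. The expression level of a gene was taken as its mean CPM over all 6 libraries of day 7. The median level was 18.5 CPM among all 18196 genes, 118 CPM among the lower calls and 23.4 CPM among the higher calls under TMM. Genes over 100 CPM made up 10.8% of those tested, 56.9% of the 313 lower calls and 11.1% of the 36 higher calls. Under total-count scaling the median level was 88.4 CPM among the 35 lower and 45.0 CPM among the 82 higher calls. Genes over 100 CPM were then 34.3% and 24.4% of them. Of 20313 genes in the authors' deposited table, 23 were called higher and 286 lower under UV on day 7. Of these 286 lower genes, 67.1% were over 100 CPM.

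By bands of expression, the lower calls under TMM numbered 0 of 322 genes under 1 CPM, 2 of 1781 at 1 to 3 CPM, 8 of 3906 at 3 to 10 CPM and 33 of 5832 at 10 to 30 CPM. They rose to 92 of 4385 genes at 30 to 100 CPM (2.10%), 119 of 1405 at 100 to 300 CPM (8.47%) and 59 of 565 over 300 CPM (10.4%). The higher calls were spread more evenly, with 7, 3, 13, 9, 3 and 1 genes in the bands from 1 to 3 CPM upward. Precision also rose with level. The median standard error of the log2 fold change was 0.42 at 1 to 3 CPM, 0.16 at 10 to 30 CPM and 0.11 over 300 CPM. The smallest absolute log2 fold change that was called was 1.38 at 1 to 3 CPM, 0.51 at 10 to 30 CPM and 0.36 over 300 CPM. These are the smallest changes called under TMM, not limits of detection. Of the 11 rises of at least 2-fold, 7 were at 1 to 3 CPM and none was above 30 CPM, whereas the 18 falls of at least 2-fold included 8 genes above 30 CPM.

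**Figure D2:**
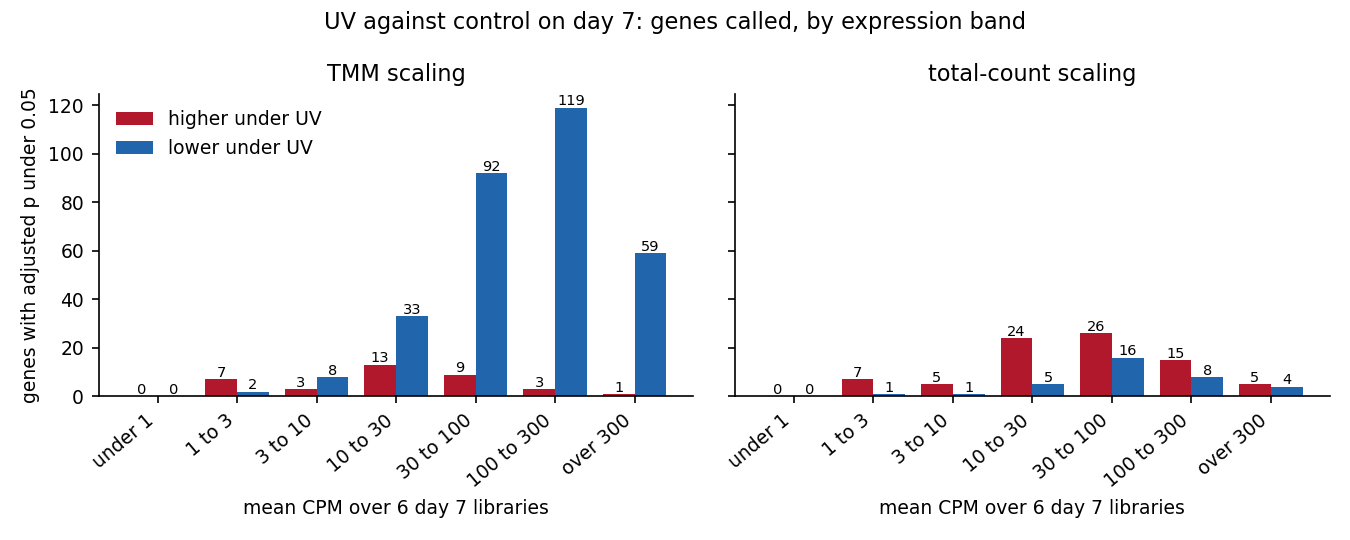
Bars count the genes past an adjusted p of 0.05 on day 7, higher (red) or lower (blue) under UV, in 7 bands of mean CPM, under TMM (left) and total-count scaling (right). Lower calls peak at 119 genes in the 100 to 300 CPM band under TMM and number 8 there under total-count scaling.

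The shift of abundant genes did not rest on the called genes alone. Over 300 CPM, 89.0% of the 565 genes had a lower fitted level under UV with TMM, and the median log2 fold change was -0.17. At 100 to 300 CPM 74.9% were lower with a median of -0.12, and at 30 to 100 CPM 60.2% with a median of -0.04. At 10 to 30 CPM 48.4% were lower with a median of 0.01, and at 3 to 10 CPM 45.6% with a median of 0.03. The median did not rise further below that level. It was 0.0013 at 1 to 3 CPM and -0.095 under 1 CPM. Among genes over 300 CPM the groups did not overlap, with UV lower, in 48.3% under TMM and 24.4% under total-count scaling, against 12.8% and 5.72% of all genes tested. At 10 to 30 CPM the groups did not overlap, with UV higher, in 7.17% under TMM and 19.8% under total-count scaling, against 6.17% and 16.8% of all genes. Under total-count scaling the medians were -0.02 over 300 CPM, 0.03 at 100 to 300 CPM, 0.15 at 10 to 30 CPM and 0.17 at 3 to 10 CPM. The gradient lay around a different zero. Between TMM and total-count scaling the median turned from below to above 0 at 30 to 100 CPM, where it was 0.10 under total-count scaling, at 100 to 300 CPM and among the 322 genes under 1 CPM. The median over 300 CPM was below 0 under all 9 scalings.

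The gap between abundant and low genes is free of the choice of library factor, because 1 factor moves every gene of a library alike. The median log2 fold change of genes over 300 CPM minus that of genes of 3 to 10 CPM was -0.20 under TMM and lay between -0.19 and -0.18 under the other 7 scalings with 1 factor per library. Loess scaling, which is built to remove such a gap, left -0.024. Measured in each library against the control mean, the gap was -0.0031, 0.06 and -0.08 in control replicates 1, 2 and 3, and -0.15, -0.22 and -0.21 in UV replicates 1, 2 and 3. Every UV library lay below every control library, and control replicate 3 was nearest to the UV libraries. The gap was -0.22 to -0.17 when any 1 library was left out under TMM, which includes the fit without the shallow UV replicate 1 (-0.20). With all libraries at equal depth it was -0.18, and with read counts in place of UMIs also -0.18. Over 300 CPM, UMIs per read were 0.697, 0.714 and 0.666 in control and 0.717, 0.675 and 0.675 in UV cultures, and so did not separate the arms.

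**Figure D3:**
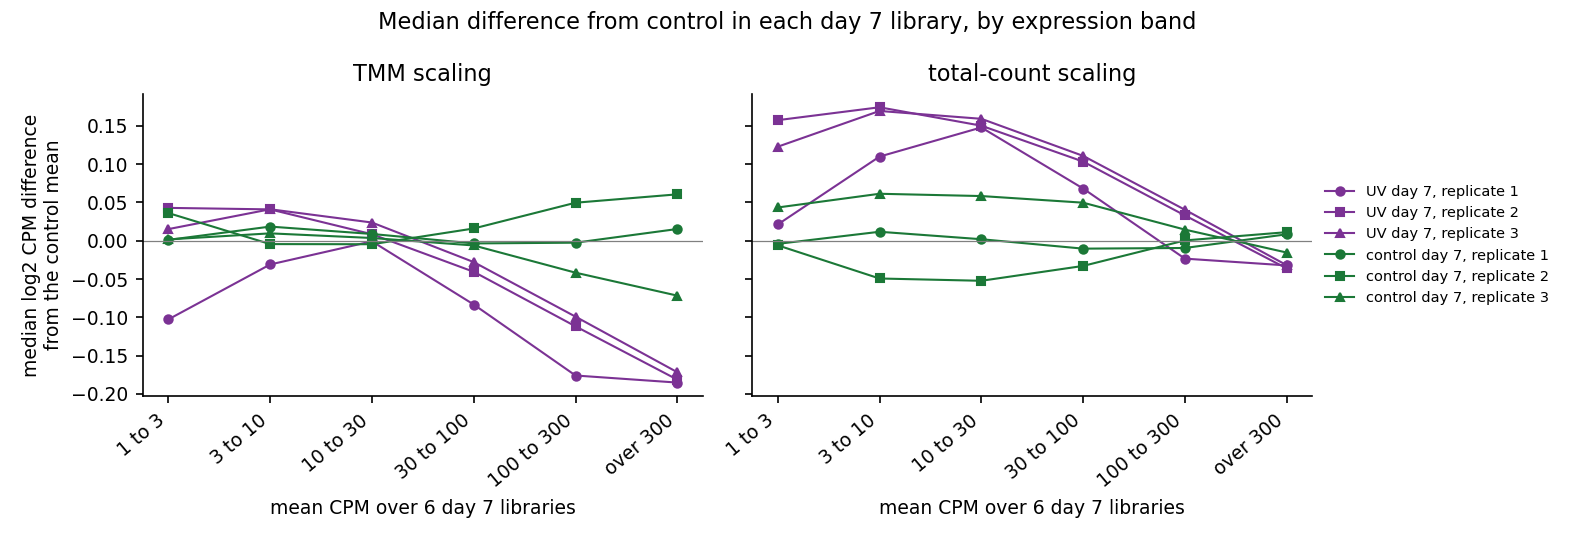
Lines give, for each of the 6 day 7 libraries, the median log2 CPM difference from the mean of the control libraries in bands of mean CPM of 1 and above, under TMM (left) and total-count scaling (right). Under TMM the UV libraries (purple) fall from between -0.10 and 0.04 at 1 to 3 CPM to between -0.19 and -0.17 over 300 CPM, and under total-count scaling the same slope starts above zero.

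Few of the very most abundant genes passed the threshold. The 10 most abundant genes all had a lower fitted level under UV, with a median log2 fold change of -0.28 under TMM and -0.13 under total-count scaling, yet only 1 of them passed the threshold. Of the 100 most abundant genes 2 were called, both lower, a share near the 1.92% of all genes tested. Of the 1000 most abundant, 105 were called lower and 2 higher.

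Genes to be named were taken from those called in the same direction under TMM, median-of-ratios and total-count scaling without overlap between the arms, a condition met by 34 higher and 35 lower genes. As the identifiers carry no names, only the 2 most abundant of each are given. None of the named genes shared its second identifier with another gene. G38256 was the most abundant of these 35 lower genes. Its level was 866, 929 and 686 CPM in control replicates 1, 2 and 3 and 543, 527 and 495 CPM in UV replicates 1, 2 and 3. The UV libraries were close together and all lay below the lowest control library. Its mean fell from 827 ± 127 to 521 ± 24.6 CPM (SD, n = 3 each). The log2 fold change was -0.67 (SE 0.12, edgeR adjusted p 0.00225). Under total-count scaling its log2 fold change was -0.52 (edgeR adjusted p 0.0292). The call was lost in 5 of 30 alternatives, all with total-count scaling and 1 library left out.

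G8299 was 678, 600 and 499 CPM in control replicates 1, 2 and 3 and 455, 325 and 362 CPM in UV replicates 1, 2 and 3. The arms were separated by the gap between 455 and 499 CPM. Its mean fell from 592 ± 89.4 to 380 ± 67.0 CPM (SD, n = 3 each). The log2 fold change was -0.65 (SE 0.12, edgeR adjusted p 0.00375). The edgeR adjusted p under total-count scaling was 0.0324. Its call was lost in 5 of 30 alternatives. These left out UV replicate 2 under either scaling, or control replicate 1, control replicate 2 or UV replicate 3 under total-count scaling.

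Among the higher genes that met the naming condition, G12662 was the most abundant. It had 528, 501 and 625 CPM in control replicates 1, 2 and 3. In UV replicates 1, 2 and 3 it had 670, 744 and 744 CPM. Control replicate 3 was again the control library nearest to the UV libraries. Its mean rose from 551 ± 65.3 to 719 ± 42.6 CPM (SD, n = 3 each). The log2 fold change was 0.39 (SE 0.10, edgeR adjusted p 0.0418). This was close to the threshold and was lost in 11 of 30 alternatives, among them read counts, equal depth and the removal under TMM of any library but control replicate 3. Its adjusted p over alternatives (edgeR, limma or DESeq2) ranged from 0.000800 to 0.280. G6403 was 168, 146 and 207 CPM in control and 311, 250 and 250 CPM in UV cultures, a rise of the mean from 174 ± 31.2 to 270 ± 35.5 CPM (SD, n = 3 each). The log2 fold change was 0.62 (SE 0.13, edgeR adjusted p 0.0116). Its lowest UV library was above its highest control library, as the naming condition required. The call was lost in 3 of 30 alternatives, each under TMM with control replicate 1, control replicate 2 or UV replicate 1 left out. The direction of these 4 genes was the same in all 30 alternatives. Their choice already required 1 direction under 3 scalings and no overlap between arms, so this was largely fixed in advance.

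**Figure D4:**
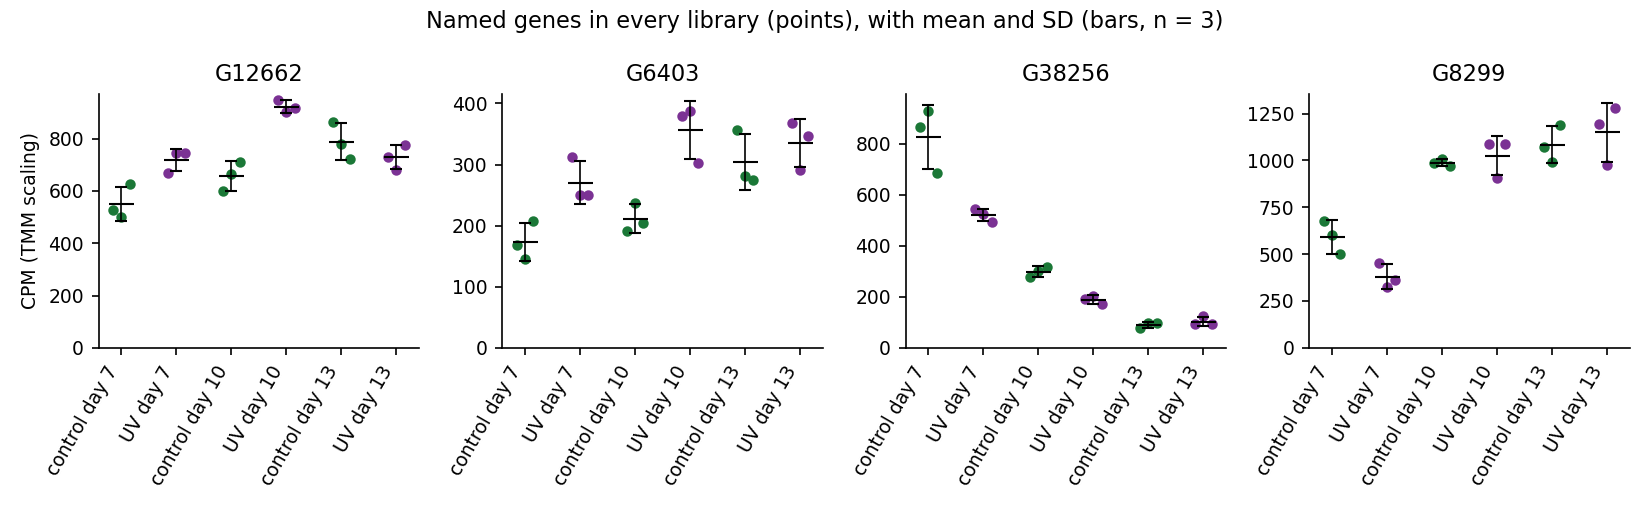
Points give the CPM (TMM scaling) of the 4 named genes in each of the 18 libraries, with bars for the mean and SD of each group (n = 3), control in green and UV in purple. On day 7 the arms do not overlap in any of the 4 genes, which was a condition of their choice. G38256 falls with age in both arms while G8299 is higher on days 10 and 13 than on day 7.

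The genes lower under UV on day 7 were mostly genes whose transcripts fell later as control cultures aged. This was measured as control day 13 against control day 10, which uses no day 7 library except through the shared filter, scaling and estimate of the spread. Of the 313 genes, 298 had a lower fitted level on day 13 (95.2%), against 45.6% of all 18196 genes, and their median log2 fold change was -1.20, against 0.04. In edgeR's quasi-likelihood test 269 of them fell and 5 rose at an adjusted p under 0.05, against 14% and 12.1% of all genes tested. Of these 269, 187 fell at least 2-fold, against 1147 of all 18196 genes. Under total-count scaling 251 of the 313 fell and 10 rose past the threshold, against 1837 and 4442 of all 18196 genes. The median there was -1.02, against 0.21 for all genes. Control day 10 replicates 1 and 2 were shallow, at 0.870 and 0.876 UMIs per read (other control libraries 0.700 to 0.784), and their part in this result was examined by leaving them out. With only replicate 3 on day 10 the median was -1.22, and with only replicates 1 and 2 it was -1.15.

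The fall was also present within bands of expression. At 100 to 300 CPM the 119 lower calls had a median of -1.29 between control days 10 and 13, against -0.13 for the other genes of the band, and over 300 CPM the 59 lower calls had -1.40 against -0.24. At 30 to 100 CPM the 92 lower calls had -1.05 against -0.03. In edgeR's quasi-likelihood test 113 of the 119 and 53 of the 59 fell past the threshold. Among all genes of 100 to 300 CPM and over 300 CPM, 41.3% and 49.6% did. The 36 genes higher under UV on day 7 had a median of 0.27. Of these 11 rose and 6 (16.7%) fell past the threshold, against 12.1% and 14% of all genes tested. G38256 fell by 1.73 on the log2 scale between control days 10 and 13 (edgeR adjusted p 1.17e-13). G8299 did not change past the threshold over these days, with a log2 fold change of 0.13 and an edgeR adjusted p of 0.468.

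The share of a library's UMIs that these 313 genes held shows the same course. On day 7, where they were chosen, it was 6.50%, 6.46% and 5.84% in control replicates 1, 2 and 3 and 4.68%, 4.81% and 4.90% in UV replicates 1, 2 and 3. On day 10 it was 5.11%, 5.47% and 5.22% in control and 4.50%, 4.38% and 4.08% in UV cultures, and on day 13 it was 2.97%, 3.17% and 3.30% in control and 3.38%, 3.79% and 3.46% in UV cultures. UV cultures held less than control cultures on day 10 and more on day 13, without overlap on either day.

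The UV difference of the same genes was followed in the later harvests. Their libraries were not in the day 7 contrast, but shared its low-count filter, its scaling and its estimate of the spread. On day 10, 295 of the 313 genes were again lower under UV, with a median log2 fold change of -0.46 against 0.01 for all genes. In edgeR's quasi-likelihood test 121 fell and 1 rose, against 1.88% and 0.648% of all genes tested. Abundant genes fell more often. At 100 to 300 CPM 46 of the 119 lower calls fell, against 8.61% of all genes of the band. Over 300 CPM 34 of the 59 fell, against 11.3%. Within the shallow day 10 libraries the median was -0.38, and between replicates 3, with 1 library per arm, it was -0.58. On day 13, 252 of the 313 were instead higher under UV, with a median of 0.25 against -0.0042 for all genes, and 40 rose and 2 fell, against 1.54% and 0.385% of all genes tested. Under total-count scaling the medians were -0.43 on day 10 and 0.26 on day 13. The day 10 control libraries enter both this comparison and the fall between control days 10 and 13, so these are not separate evidence. Of the 36 genes higher on day 7, 33 were higher under UV on day 10 (median log2 fold change 0.52) with 15 past the threshold, and 28 on day 13 (median 0.27) with 10 past it. None of the 36 fell past the threshold on either day, which is near the 1.88% and 0.385% of all genes tested that did.

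**Figure D5:**
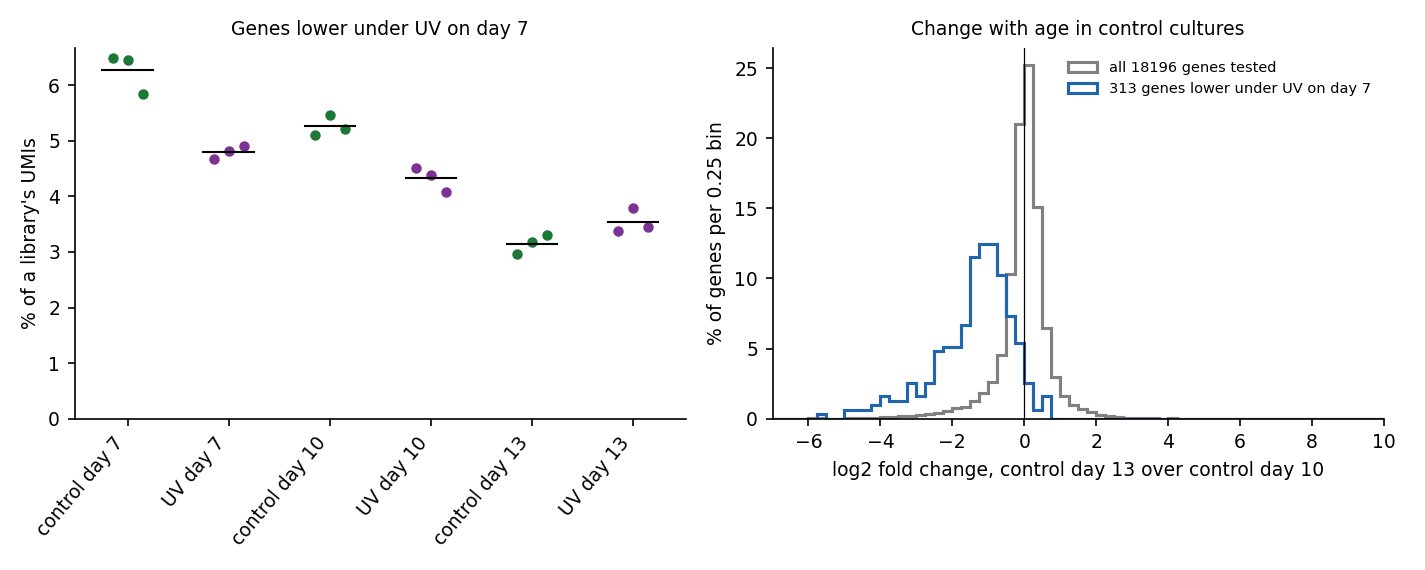
Left, the percent of each library's UMIs held by the 313 genes lower under UV on day 7, for the 18 libraries (points, control green and UV purple) with group means (lines). Right, the log2 fold change of control day 13 over control day 10 for the 313 genes (blue) and all 18196 genes tested (grey), as percent of genes per 0.25-wide bin, with medians of -1.20 and 0.04.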

How the data were processed

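RNA was extracted from pelleted cultures, cleared of DNA and sequenced as MARS-seq2.0 libraries, per the labels' protocols. The authors deposited UMI counts and read counts per gene as whole numbers, not normalized. Their own table of comparisons gives log2 fold changes and adjusted p-values from DESeq2, per the file headers and names. The aligner, like the build and annotation, is not given in the sources used here. The 54 per-library columns of that table were not used.

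Of 41734 genes in the matrix, 18196 passed filterByExpr (minimum count 10, minimum total 15) and held 99.8% of the UMIs of each day 7 library. They were tested with edgeR 4.0.16 in R 4.3.3 (quasi-likelihood, robust, TMM, 1 mean per group in a fit of all 18 libraries), with Benjamini-Hochberg adjustment over all genes tested. DESeq2 1.42.0 and limma 3.58.1 were alternatives, and log2 CPM used a prior count of 2. Loess scaling used cyclic loess of log2 CPM with a span of 0.7. The pipeline was tested on simulated data with 200 changed genes. Named genes had a mean of at least 5 UMIs, were called under TMM, median-of-ratios and total-count scaling with no overlap between arms, and were the 2 most abundant per direction. Groups, bands and rules were chosen with earlier results of these data known. As each value rests on UMIs of 1 library, precision is given beside the UMI counts. Under TMM the median standard error was 0.42 at 1 to 3 CPM, 0.13 at 30 to 100 CPM and 0.11 over 300 CPM. The median UMIs per library in these bands were 10.7, 258 and 2916. What sets the precision was not tested. Replicates of an arm differed by more than counting noise (chi-square per degree of freedom 2.23 to 4.64), so none were taken for repeat deposits of 1 library. Separate cultures are bound to differ by more, and nothing else rests on this check.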

Additional observations from a re-analysis of the deposited data

Results flagged for a closer look

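Under TMM scaling the UV difference of 2 of the 4 named genes differed between harvest days by an interaction test in edgeR's quasi-likelihood fit, adjusted over all 18196 genes. These genes were chosen for their day 7 difference, which enters the test. For G38256 the log2 fold change of UV over control rose by 0.86 from day 7 to day 13 (SE 0.17, edgeR adjusted p 0.00211), and by 0.72 under total-count scaling (edgeR adjusted p 0.0194). Its UV log2 fold change was -0.67 on day 7, -0.68 on day 10 and 0.20 on day 13. For G8299 it rose by 0.74 over the same days (SE 0.17, edgeR adjusted p 0.00877), and by 0.60 under total-count scaling, where the edgeR adjusted p was 0.0512 and missed the threshold. Its UV log2 fold change was 0.06 on day 10 and 0.09 on day 13. For G12662 the UV log2 fold change under TMM was 0.39 on day 7, 0.48 on day 10 and -0.11 on day 13. The day 13 value was not past the threshold (edgeR adjusted p 0.767). The change of G12662 from day 7 to day 13 was -0.63 under total-count scaling (edgeR adjusted p 0.0103). Under TMM it was -0.50 (edgeR adjusted p 0.0510) and missed the threshold. For G6403 the change was -0.48 under TMM (edgeR adjusted p 0.210) and -0.61 under total-count scaling (edgeR adjusted p 0.0906).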

How the results depend on the processing

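The number of genes called moved with most settings, and except under both kinds of library total and the leave-one-out fits of total-count scaling more genes were lower than higher. Against 349 called of 18196 genes tested, 36 higher and 313 lower, total-count scaling gave 117, 82 and 35. Totals without the 100 most abundant genes gave 134, 70 and 64. Scaling by genes over 100 CPM gave 119 with 69 lower, upper-quartile scaling 200 with 150 lower and singleton pairing 223 with 182 lower. These scalings were tested on the same 18196 genes, but other settings changed the number tested, so those counts are not directly comparable. Equal depth gave 227 of 14549 genes with 14 higher. No low-count filter gave 770 of 31094, 72 higher and 698 lower. A fit of only the 6 day 7 libraries gave 707 of 17202, 69 higher and 638 lower. With TMM also computed within them it gave 556 of 17236 with 87 higher. Without the 4 shallow day 10 libraries 551 of 19037 genes passed, 498 lower. Limma-voom gave 431 of 18196 genes with 56 higher. DESeq2 gave an adjusted p to only 8006 genes and called 427, 398 of them lower. Read counts gave 286 of 18596 with 259 lower. Leaving out 1 day 7 library gave 19 to 611 genes, 11 to 181 higher and 5 to 541 lower, under TMM or total-count scaling. Under total-count scaling 56.5% to 74.2% of the calls were higher in those fits. The gap between genes over 300 CPM and of 3 to 10 CPM was -0.22 to -0.16 in these leave-one-out fits and -0.024 with loess scaling, which removes it by construction. The difference in genes detected turned to -1138 at the deposited depth, where UV replicate 1 has the fewest UMIs. The cause of these changes was not tested.

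With the replicate number as a block within each day, 557 genes passed, 503 of them lower. Deviations from the group mean correlated at 0.02, 0.05 and -0.01 between same-numbered cultures of the arms on day 7, and UV replicate 3 correlated most with control replicate 1 (0.03), so the numbers were not taken as pairs. The 322 genes under 1 CPM had a median of 3.75 UMIs per library. Of these genes 0 were called under TMM, and 1 when genes of 1 to 10 CPM set the scaling. Whether depth sets this was not tested.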

Other observations

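The gap between abundant and low genes, as the median log2 difference from the control mean of the same day over genes above 300 CPM minus genes of 3 to 10 CPM on day 7, was also read in the later libraries. On day 10 it was -0.04, 0.05 and -0.03 in control replicates 1, 2 and 3 and -0.12, -0.10 and -0.15 in UV replicates 1, 2 and 3, with no overlap. On day 13 it was 0.08, 0.02 and -0.12 in control and -0.000015, -0.14 and -0.01 in UV cultures, which overlapped. A difference of this gap between days was not tested. In the authors' deposited table, the median day 7 log2 fold change was -0.17 for genes over 300 CPM. It was -0.12 at 100 to 300 CPM and 0.02 at 3 to 10 CPM. In the same order, 73 of 565, 119 of 1405 and 3 of 3906 genes were lower past an adjusted p of 0.05. Higher past it were 1, 4 and 3 genes.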
